A study of Mus musculus with 6 samples.

Results

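COUP-TFII binding sites were examined at 60 genes of the WNT pathway: 19 WNT ligands, 10 Frizzled receptors, 5 co-receptors and alternative receptors, 8 genes of the R-spondin axis, 9 secreted antagonists, 4 genes of the β-catenin destruction complex and its substrate, 4 TCF/LEF transcription factors and the planar polarity gene Vangl2. The genes were taken from a fixed list of names, and all 60 were found among the 21887 protein-coding genes of the annotation. Each peak was given to the protein-coding gene whose body lay closest to the peak centre, up to 100 kb away, with the distance counted as 0 inside a gene. By this rule 49 of the 11175 peaks of the XX list and 40 of the 9846 peaks of the XY list belonged to the WNT genes. COUP-TFII, the product of Nr2f2, is an orphan nuclear receptor found mainly in mesenchyme. It was immunoprecipitated from chromatin of E14.5 mesonephroi of CD-1 mice, pooled from XX embryos (2 samples) or XY embryos (2 samples). A further 2 samples were input chromatin of both sexes, not used here. Each sex has 1 deposited list of 300 bp peaks without heights or scores. No value below therefore has a spread between replicates, the depth behind each list is unknown, and a peak missing from a list may be absent or below the authors' threshold. The mesonephros holds mesenchyme, duct epithelium, vessels and other cells, and the label of the tissue could not be checked against marker genes because the lists carry no expression values.

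WNT proteins are secreted ligands that bind a Frizzled receptor together with Lrp5 or Lrp6. This stops the complex of Axin and Apc from marking β-catenin for destruction, and β-catenin then works with TCF/LEF factors on target genes. Ror1, Ror2 and Ryk are receptors for WNT signals that do not pass through β-catenin, such as those of planar cell polarity. R-spondins and their Lgr receptors raise the number of Frizzled receptors at the cell surface by removing the ubiquitin ligases Znrf3 and Rnf43. In the fetal reproductive tract, Wnt4, Wnt9b, Wnt7a and Wnt5a are known for roles in forming and patterning the Müllerian and Wolffian ducts and their mesenchyme.

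Of the 60 genes, 29 had an XX peak (48.3%, against 36.9% of all protein-coding genes) and 27 had an XY peak (45.0% against 35.0%). Where an XX and an XY peak overlapped by 1 bp or more, the peak was called shared and is given with its XX coordinates. In all, 20 of the genes had a shared peak (33.3%, against 28.2% of all protein-coding genes), and 27 had no peak in either list (45.0% against 57.8%). The number of peaks a gene can collect depends on how much of the genome lies closer to it than to any other, and this stretch was longer for the WNT genes (median 100 kb) than for all genes (median 45 kb). Per megabase of that stretch, the WNT genes had 6.79 XX, 5.54 XY and 3.88 shared peaks, and all genes had 5.47, 4.91 and 3.74. No test was made on the list.

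**Figure D1:**
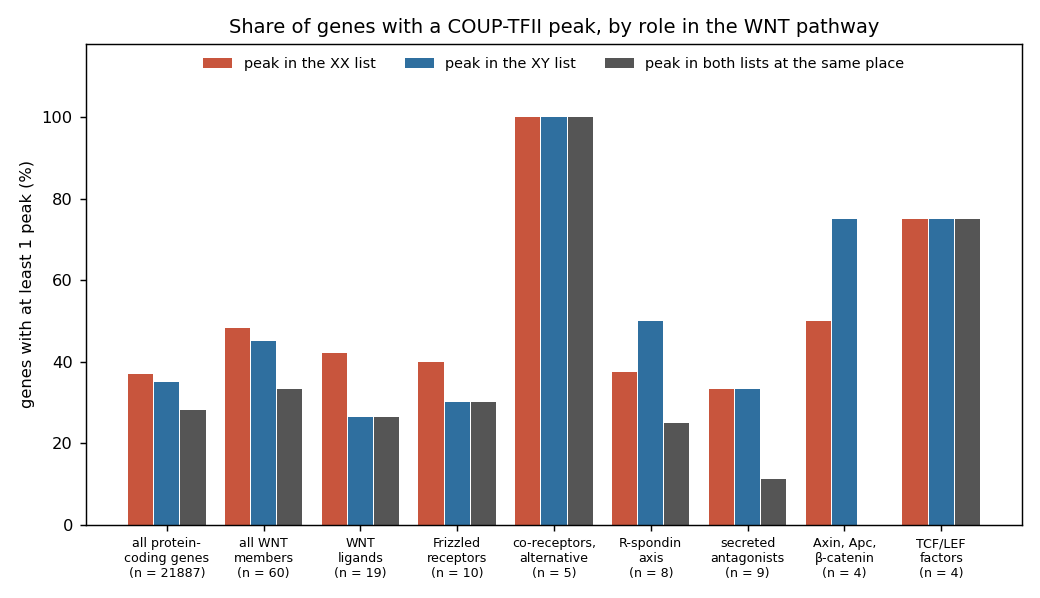
Share of genes with at least 1 COUP-TFII peak in the XX list, in the XY list and in both lists at the same place (vertical axis, percent), for all protein-coding genes, all 60 WNT genes and each role, with the number of genes under each group; Vangl2, a group of 1, is left out. All 5 co-receptors and alternative receptors had a shared peak, and none of the 4 genes of the Axin, Apc and β-catenin group did (Axin2 had 1 when peaks within 1 kb were taken as 1 place). The share over all protein-coding genes was 28.2%.

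The roles differed in their counts, which are small. Shared peaks were found at all 5 of Lrp5, Lrp6, Ror1, Ror2 and Ryk, at 3 of 4 TCF/LEF genes, at 3 of 10 Frizzled genes, at 5 of 19 ligand genes, at 2 of 8 genes of the R-spondin axis and at 1 of 9 antagonist genes. Axin1, Axin2, Apc and Ctnnb1 had none, although Axin2 had 1 when peaks within 1 kb of each other were taken as 1 place. Over all protein-coding genes the share with a shared peak was 28.2%. The shares of the Frizzled (30%), ligand (26.3%) and R-spondin axis genes (25%) were near it. The TCF/LEF genes have long stretches of nearest genome (median 206 kb). Per megabase of it they had 3.58 shared peaks, against 6.26 for the co-receptors and alternative receptors and 3.74 for all genes. With genes of all kinds competing, Wnt7b, Wnt10a, Wnt11, Lef1 and Tcf7l1 had no shared peak. Most genes with a shared peak had 1: this was so for 16 of the 20, while Znrf3 had 2, Ror2 and Sfrp1 had 3 each and Wnt7b had 4. At least 3 shared peaks were found at 3 of the 60 WNT genes, against 0.553% of all protein-coding genes, and at least 4 at 1 of them, against 0.114%. These counts rest on distant peaks. With a limit of 10 kb none of the 60 had 3 (Ror2 had 2, Sfrp1 1 and Wnt7b 0), against 0.292% of all protein-coding genes, and with genes of all kinds competing only Ror2 did, again against 0.292%.

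**Figure D2:**
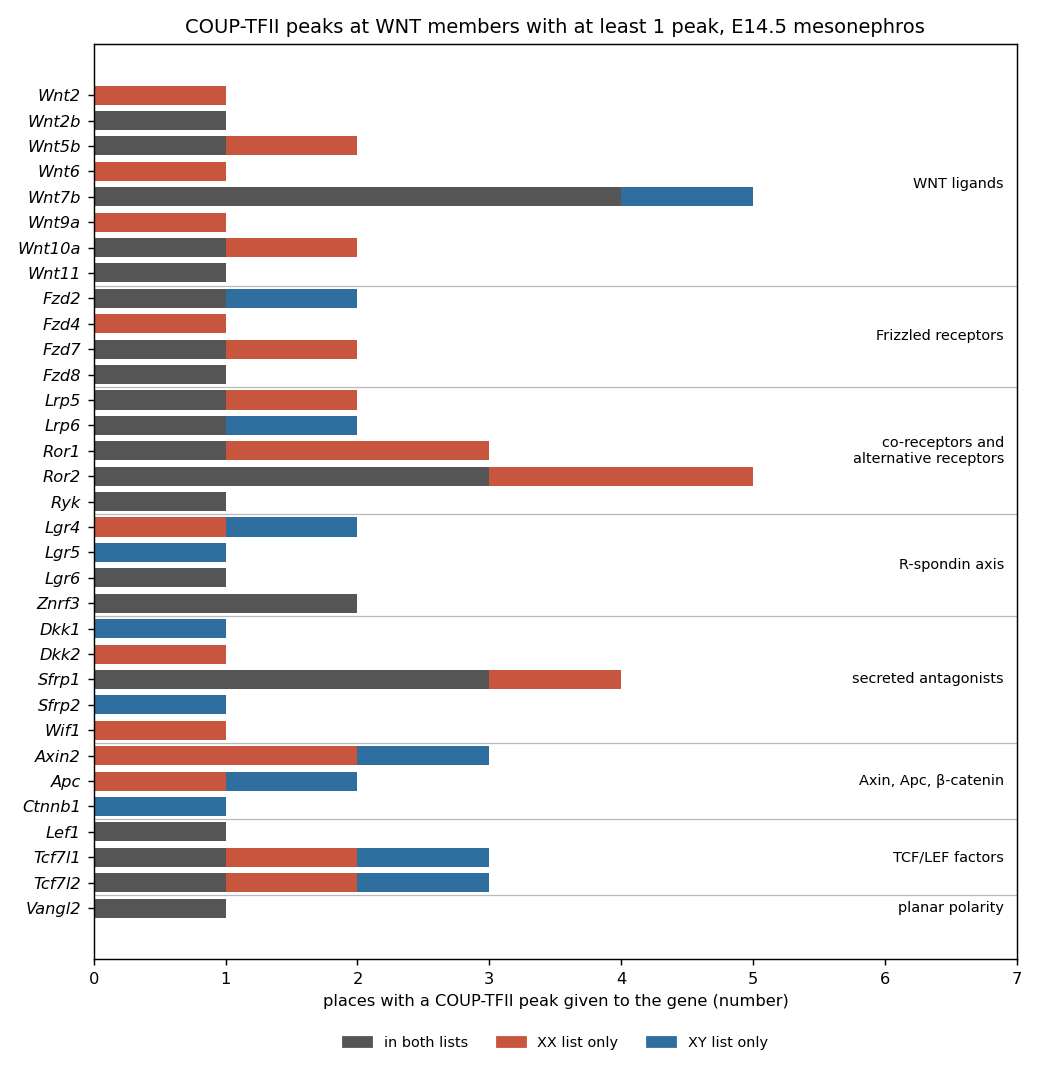
Number of places with a COUP-TFII peak (horizontal axis) at each of the 33 WNT genes with at least 1 peak, divided into peaks in both lists, in the XX list only and in the XY list only, with grey lines between roles. Wnt7b and Ror2 have the longest bars, with 5 places each, and at Wnt7b 4 of them are in both lists.

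Promoter sequence could be matched for 41 of the 60 genes, as RefSeq windows of 250 bases before to 50 after an annotated transcription start (GRCm38.p6, the assembly of mm10). A peak covered at least 1 base of such a window at 7 of the 41 (Lgr4, Ctnnb1, Dkk1, Fzd4, Wnt2, Wnt5b and Vangl2), or 17.1%, against 26.7% of all protein-coding genes with a window. At Lgr4, Ctnnb1 and Dkk1 that peak was in the XY list only. The 250 bases before the start of these 3 genes lie outside every annotated gene and are shown because they hold the XY-only promoter peaks of an R-spondin receptor, of β-catenin and of a secreted antagonist. Bases under the XY peak are in capitals. The stretches are chr2:109917397-109917646 (plus strand) for Lgr4, chr9:120933150-120933399 (plus strand) for Ctnnb1 and chr19:30549497-30549746 (minus strand) for Dkk1, each written 5′ to 3′ and ending just before the start.
Lgr4: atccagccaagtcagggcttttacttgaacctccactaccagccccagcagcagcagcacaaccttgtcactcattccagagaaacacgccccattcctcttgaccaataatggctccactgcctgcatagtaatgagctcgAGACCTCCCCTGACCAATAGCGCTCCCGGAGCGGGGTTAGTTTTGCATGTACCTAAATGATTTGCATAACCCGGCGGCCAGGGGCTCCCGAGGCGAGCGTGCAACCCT
Ctnnb1: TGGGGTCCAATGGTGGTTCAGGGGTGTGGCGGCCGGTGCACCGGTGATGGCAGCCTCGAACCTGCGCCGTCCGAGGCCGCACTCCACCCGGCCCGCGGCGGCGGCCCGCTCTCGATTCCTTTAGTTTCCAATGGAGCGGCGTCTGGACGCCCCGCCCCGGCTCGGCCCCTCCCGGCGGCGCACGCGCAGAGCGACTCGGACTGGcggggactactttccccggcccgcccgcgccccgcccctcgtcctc
Dkk1: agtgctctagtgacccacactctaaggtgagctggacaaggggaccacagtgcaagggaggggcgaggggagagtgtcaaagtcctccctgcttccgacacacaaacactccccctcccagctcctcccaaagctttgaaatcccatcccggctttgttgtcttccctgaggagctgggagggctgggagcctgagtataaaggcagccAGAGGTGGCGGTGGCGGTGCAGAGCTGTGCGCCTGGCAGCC

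The peak covered 204 of the 250 bases at Ctnnb1, 108 at Lgr4 and 41 at Dkk1, where most of the peak lay past the start. The windows differed in base composition: G and C made up 75.3% of the Ctnnb1 window, 60.7% of the Dkk1 window and 58.3% of the Lgr4 window. CpG pairs occurred at 1.08 times the number expected from base composition at Ctnnb1, 0.711 times at Lgr4 and 0.327 times at Dkk1, and the median was 0.567 for all protein-coding windows and 0.825 for those under a peak.

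These windows were searched on both strands for AGGTCA, the core that nuclear receptors such as COUP-TFII bind, for its variant GGGTCA, for direct repeats of these cores with 0 to 5 bases between, and for CTTTGA, the core that TCF/LEF factors bind. None was found in the Lgr4 window or in either Ctnnb1 window. Part of each of the Lgr4, Ctnnb1 and Dkk1 peaks lay outside the windows, and that sequence was not searched. The Dkk1 window holds GGGTCA on its minus strand at bases 11 to 16 and CTTTGA at bases 77 to 82 (minus strand) and 134 to 139 (plus strand), counted from the 5′ end of the window, and none of these lies under the peak. Of the 8 WNT gene windows with at least 1 base under a peak, 0 held AGGTCA, 2 held GGGTCA and 1 held CTTTGA. Cores were counted over the whole window, also outside the peak, here and in the shares that follow. The shares among all 21263 protein-coding windows were 14.7%, 13.7% and 14.4%, and among the 5155 windows under a peak 14.4%, 18% and 10.9%. Direct repeats were found in none of the 51 WNT gene windows and in 0.292% of all windows.

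Fzd4, a Frizzled receptor best known from the growth of retinal vessels, shows how much a count can rest on the rule. By the rule it had 1 XX-only peak, 8.12 kb outside the gene, and no shared peak. Yet an XX peak (chr7:89404050-89404349) and an XY peak (chr7:89403992-89404291) covered its promoter window and were given to Tmem135, whose body spans that stretch on the other strand. With peaks given to the nearest gene end instead, Fzd4 had 3 XX, 2 XY and 2 shared peaks. With genes of all kinds competing it had no XX peak, as the noncoding gene AI314278 lay nearer to the peak at 8.12 kb. Under both promoter peaks lies the GGGTCA core on the minus strand, 124 bases before the Fzd4 start. It is shown with its flanks (chr7:89404230-89404259, plus strand, the core in capitals, read here as TGACCC).
Fzd4: cgggcgggggccTGACCCttacagcaggag

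Among the ligands, Wnt7b stood out by number. Wnt7b, a ligand made by epithelia of kidney, lung and other organs, lies at chr15:85535437-85581821 and had 4 XX and 5 XY peaks, none inside the gene. The 4 shared peaks were centred 29.1 kb, 52.8 kb, 64.3 kb and 72.0 kb beyond the upper end of the gene and spanned 43.1 kb, from chr15:85610791-85611090 to chr15:85653633-85653932. Another place, 44.0 kb outside the gene, was in the XY list only and lay 8.81 kb from the nearest XX peak. The long noncoding RNA genes AU022754 and D130051D11Rik were nearer to these peaks than Wnt7b, and the peak at 52.8 kb lay inside D130051D11Rik. With genes of all kinds competing, or with a limit of 10 kb, Wnt7b had no peak.

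The other 4 ligands with a shared peak had 1 each. At Wnt2b, a mesenchymal ligand, it lay 6.30 kb before the annotated start. At Wnt5b its XX centre lay at -230 bp relative to a start of the gene, which is also the end of the predicted gene Gm52875, and by the nearest gene end the XX peak went to Gm52875. At Wnt10a and Wnt11, the latter a ligand of branching duct tips, the shared peak lay 12.7 kb and 19.7 kb outside the gene. These 2 peaks had their XX centres 92 bp from a tRNA gene (Wnt10a) and 15 bp from a tRNA gene (Wnt11). In all, 31 XX peaks (0.277% of the list) and 34 XY peaks (0.345%) lay within 150 bp of one of 408 annotated tRNA genes. Of the 31, 27 were shared (87.1%, against 67.0% of the whole XX list), a difference that was not tested.

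Wnt2, Wnt6 and Wnt9a had 1 XX peak each and no XY peak. The Wnt2 peak lay 197 bp past a transcription start, the Wnt6 peak at -844 bp relative to one and the Wnt9a peak 14.4 kb beyond the gene. The nearest XY peaks to them were 335 kb, 45.9 kb and 102 kb away. Wnt5b and Wnt10a also had 1 XX-only peak each beside the shared one. The Wnt5b one, inside the gene, lay 1.36 kb from an XY peak that was given to Fbxl14, a gene within Wnt5b. The remaining 11 ligand genes, Wnt1, Wnt3, Wnt3a, Wnt4, Wnt5a, Wnt7a, Wnt8a, Wnt8b, Wnt9b, Wnt10b and Wnt16, had no peak of their own in either list. They make up 57.9% of the ligand genes, near the 57.8% of all protein-coding genes without a peak.

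Of the Frizzled receptors, Fzd2, Fzd7 and Fzd8 each had 1 shared peak inside their short gene bodies. The XX and XY centres were 13 bp apart at Fzd2 and Fzd8 and 4 bp apart at Fzd7. The Fzd7 peak lay 1.93 kb past the start of a gene 4.81 kb long. Fzd7 had a further XX-only peak 6.39 kb before the start, and Fzd2 a further XY-only peak 8.93 kb outside the gene. Fzd1, Fzd3, Fzd5, Fzd6, Fzd9 and Fzd10 had none (60% of the Frizzled genes, against 57.8% of all protein-coding genes).

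All 5 co-receptors and alternative receptors had peaks in both lists. Ror2, a receptor of WNT5A in limb, gut and genital mesenchyme, is 177 kb long (chr13:53109317-53286124) and had 5 XX and 3 XY peaks. Its 3 shared peaks lay 468 bp past the start (chr13:53285507-53285806), 23.3 kb past it (chr13:53262694-53262993) and 40.7 kb beyond the far end of the gene (chr13:53068518-53068817). Their XX and XY centres were 92, 13 and 11 bp apart. Its 2 XX-only peaks lay 103 kb and 166 kb past the start, inside the gene, and the nearest XY peaks were 79.4 kb and 51.3 kb from them. Ror1, its paralog, is 349 kb long and had 1 shared peak 71.2 kb past the start. Ror1 also had XX-only peaks 340 kb past the start and 43.8 kb before it, the latter nearer to the noncoding gene Gm35701.

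Ryk, a receptor with a WNT-binding domain and an inactive kinase, had 1 shared peak 553 bp past its start. Lrp5 and Lrp6, the co-receptors of β-catenin signalling, each had a shared peak just inside 1 end of the gene, at 695 bp and 907 bp. At Lrp6 the XX and XY peaks had the same coordinates (chr6:134565857-134566156). Lrp6 had a further XY-only peak 386 bp outside that end, 1.29 kb from the XX peak, and Lrp5 a further XX-only peak 20.9 kb inside the gene. The genes of this group are long: the stretch nearest to them ran from 117 kb at Lrp5 to 420 kb at Ror1, against a median of 100 kb for the 60 genes.

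In the R-spondin axis, peaks were given to the receptors and to Znrf3 and not to the ligands. Of the 8 genes 4 had no peak (50%), a share near the 57.8% of all protein-coding genes. When every peak within 100 kb counted, Rspo1 had 3 XX peaks and Rspo3 had 1 shared peak. Znrf3, a ubiquitin ligase that removes Frizzled receptors from the membrane, had 2 shared peaks 1.13 kb from end to end, 1 centred 10 bp outside the gene and 1 at 821 bp inside. Lgr6 had 1 shared peak inside the gene, 117.7 kb past the start and 4.24 kb from the far end. Lgr4, a receptor needed for normal growth of the epididymal duct, had an XY peak centred 41 bp past its start and an XX peak 1.06 kb past it. These did not overlap, and they count as shared when peaks within 1 kb of each other are taken as 1 place. Lgr5 had 1 XY-only peak 38 bp inside an end of the gene, with the nearest XX peak 203 kb from it. Rspo1, Rspo2, Rspo3 and Rnf43 had none, and for Rspo2 the nearest XX and XY peaks were 306 kb and 1257 kb from the gene.

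Among secreted antagonists, which bind WNT proteins (Sfrp and Wif1) or block Lrp5 and Lrp6 (Dkk1), Sfrp1 was the only gene with a shared peak. Sfrp1 (chr8:23411383-23449632) had 4 XX and 3 XY peaks. The shared ones lay 731 bp inside the gene, 58.9 kb below its lower end and 60.6 kb above its upper end, and the XX-only one lay 35.1 kb below the lower end. The 2 distant shared peaks lay nearer to the noncoding genes Gm30370 and 4930413E20Rik, which left Sfrp1 with 1 shared peak when genes of all kinds competed. Dkk1 and Sfrp2 had 1 XY peak each and no XX peak, centred 109 bp and 334 bp past a start. Dkk2 and Wif1 had 1 XX peak each and no XY peak, 1.88 kb and 21.6 kb past the start. The nearest peak of the other list was 341 kb from the Dkk1 peak, 74.7 kb from that of Sfrp2, 453 kb from that of Dkk2 and 76.5 kb from that of Wif1. Dkk3, Sfrp4, Sfrp5 and Frzb had none (44.4% of the antagonist genes, against 57.8% of all protein-coding genes).

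Inside the cell, Ctnnb1, which encodes β-catenin, had 1 XY peak centred 197 bp before its start and no XX peak within 317 kb of the gene. Axin2, a feedback inhibitor that β-catenin itself induces, had an XY peak 272 bp past a start and XX peaks at 1.16 kb and -17.7 kb relative to it. The XX peak at -17.7 kb lay inside the noncoding gene Gm46298. With a limit of 10 kb, or with genes of all kinds competing, Axin2 had 1 XX peak. The XX and XY peaks near the start had centres 887 bp apart and count as 1 shared place when peaks within 1 kb are joined. Apc had an XY peak 710 bp inside an end of the gene and an XX peak 27.4 kb inside it. Axin1 had none. The 3 genes with a peak each had an XY-only one within 1 kb of an annotated start or an end of the gene. For Axin2 this held by the start and not by an end, as the peak was 2.79 kb from the nearer end. Over all protein-coding genes, 57.2% of XY-only peaks were that close to an end. At those with a matched start, 65.4% were that close to a start. The share close to either was not counted over all genes.

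Tcf7l1 and Tcf7l2, TCF factors of which the former acts mainly as a repressor, each had 2 XX and 2 XY peaks with 1 place shared. At Tcf7l1 the shared peak lay 153 kb past the start, inside the noncoding gene Gm15401, and an XX and an XY peak lay 280 and 610 bp past the start, with centres 330 bp apart and no base in common. At Tcf7l2 the shared peak lay 2004 bp past the first start, an XY-only peak lay 903 bp past it and an XX-only peak lay 7.86 kb past an internal start. The XY-only peak also lay inside the noncoding gene Gm31734, and with genes of all kinds competing Tcf7l2 had 1 XY peak. Lef1 had 1 shared peak, 33.8 kb before its start and nearer to the noncoding gene Gm36603. Tcf7 had none. Vangl2, a core planar polarity gene needed for the shape of many ducts and tubes, had 1 shared peak centred 164 bp past its start (chr1:172026982-172027281).

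**Figure D3:**
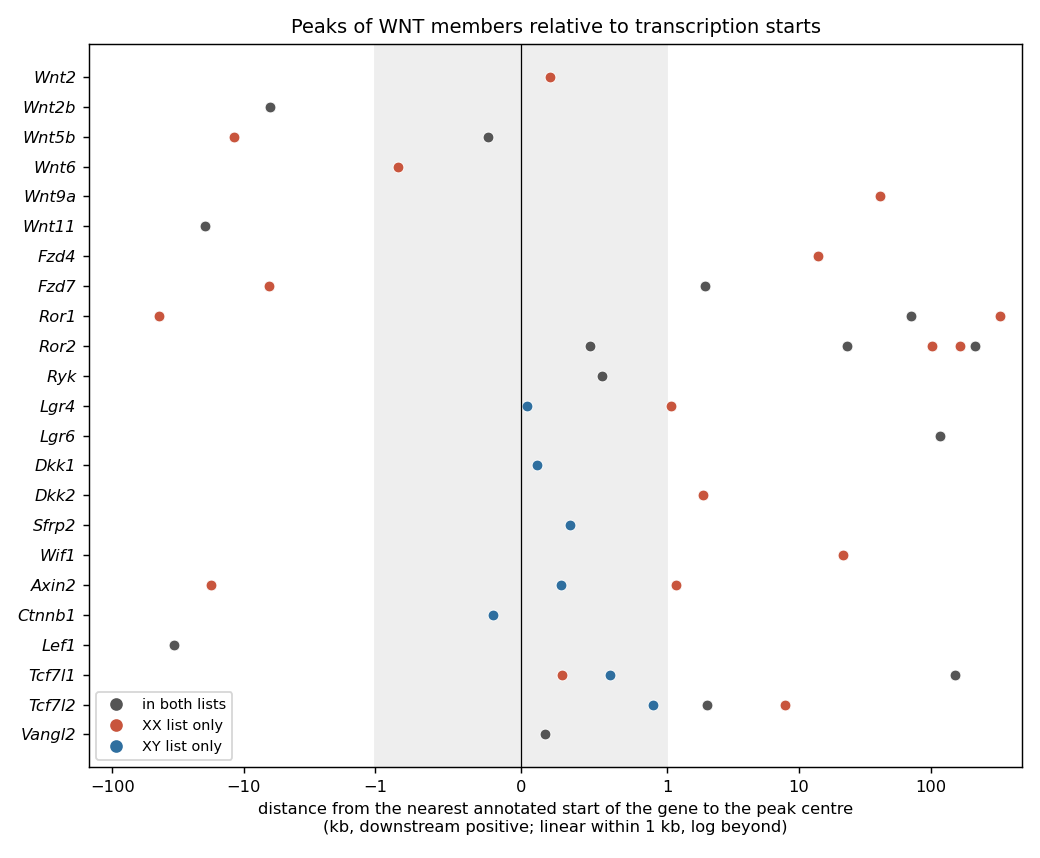
Distance from the nearest annotated start of the gene to the centre of each peak (horizontal axis, kb, downstream positive, linear within 1 kb and logarithmic beyond, with the inner 1 kb shaded) for the 23 WNT genes that have both a peak and a matched start; shared peaks are drawn at their XX centre. The 7 peaks of the XY list only that are drawn, of 12 at WNT genes, all lie within 1 kb of a start. Of the 17 drawn peaks of the XX list only, of 21 at WNT genes, 3 do.

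Of XX peaks at WNT genes, 57.1% were shared (28 of 49, exact 95% interval 42.2 to 71.2), against 67.0% of the whole XX list. Of XY peaks, 70.0% were shared (28 of 40, 53.5 to 83.4), against 76.0% of the whole XY list. The shares of the whole lists lie inside these intervals. Intervals here cover counting error only, and peaks of 1 gene share a locus. This left 21 XX-only and 12 XY-only peaks. At WNT genes with a matched start, all 7 XY-only peaks lay within 1 kb of a start (Axin2, Ctnnb1, Dkk1, Lgr4, Sfrp2, Tcf7l1 and Tcf7l2), a share of 100% (59.0 to 100). The share over all such genes was 65.4%, inside that interval. With genes of all kinds competing it was 6 of 6 at WNT genes, against 72.6%. Of XX-only peaks, 3 of 17 lay that close (Tcf7l1, Wnt2 and Wnt6), or 17.6% (3.80 to 43.4). The share over all genes was 42.8%, also inside the interval. Over all genes, too, the share near starts was lower for XX-only than for XY-only peaks. The XY-only peaks 44.0 kb outside Wnt7b and 8.93 kb outside Fzd2 had no matched start and are not among the 7. Distance to gene ends could be measured for all 12, and 9 were within 1 kb of one (75.0%, 42.8 to 94.5). The share over all genes was 57.2%, inside that interval. For XX-only peaks the count was 1 of 21 (4.76%, 0.120 to 23.8), against 37.6% over all genes. The difference between the lists at WNT genes was not tested.

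In 5 cases the XY-only peak was a near neighbour of an XX peak: at Lgr4, Lrp6, Axin2, Tcf7l1 and Tcf7l2 the centres lay between 330 bp and 1.29 kb apart. When peaks within 1 kb were taken as 1 place, 7 XY-only and 18 XX-only peaks were left. Dkk1, Sfrp2, Ctnnb1 and Lgr5 were the 4 genes with an XY peak and no XX peak (6.67%, against 5.21% of all protein-coding genes). Wnt2, Wnt6, Wnt9a, Fzd4, Dkk2 and Wif1 were the 6 with an XX peak and no XY peak (10% against 7.12%). Both shares were near those of all genes. By the nearest gene end Fzd4 had 2 XY peaks, and each of these groups had 5 genes. With genes of all kinds competing Fzd4 had no XX peak and Wnt10a no XY peak, and the XX group again numbered 6. With 1 list per sex no difference between the sexes was tested.

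The place of shared peaks at WNT genes is given beside that of shared peaks at all genes, with no test of the difference. Within 1 kb of an end of the gene lay 11 of 28 (39.3%, 21.5 to 59.4), against 64.1% of the 7148 shared peaks given to any protein-coding gene. Within 500 bp the shares were 17.9% and 53.2%. Outside the gene and over 1 kb from its ends lay another 11 (39.3%, 21.5 to 59.4), against 13.8%. The contrast outside genes depended on the rule. With a limit of 10 kb, 18 shared peaks were left at WNT genes, of which 1 (Wnt2b) lay outside, or 5.56% (0.141 to 27.3) against 4.98% over all genes, and 11 lay at ends, or 61.1% (35.7 to 82.7) against 70.6%. With genes of all kinds competing, 2 of 18 lay outside, or 11.1% (1.38 to 34.7) against 5.10%, and 61.1% lay at ends against 71.0%. Wnt7b gave 4 of the 11 outside, and without it the shares were 45.8% (25.6 to 67.2) at ends and 29.2% (12.6 to 51.1) outside. The other 7 outside were at Sfrp1 (2), Ror2, Wnt2b, Wnt10a, Wnt11 and Lef1. The place was measured from both ends of the gene body, and 6 shared peaks lay elsewhere inside a gene. Measured from annotated starts, 4 of 14 shared peaks lay within 1 kb (Ror2, Ryk, Vangl2 and Wnt5b), or 28.6% (8.39 to 58.1), against 72.6% over all genes. With a limit of 10 kb this was 4 of 11, or 36.4% (10.9 to 69.2), against 79.5%. For shared peaks, the median distance between the XX and XY centres was 29 bp at WNT genes and 33 bp in the whole lists.

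**Figure D4:**
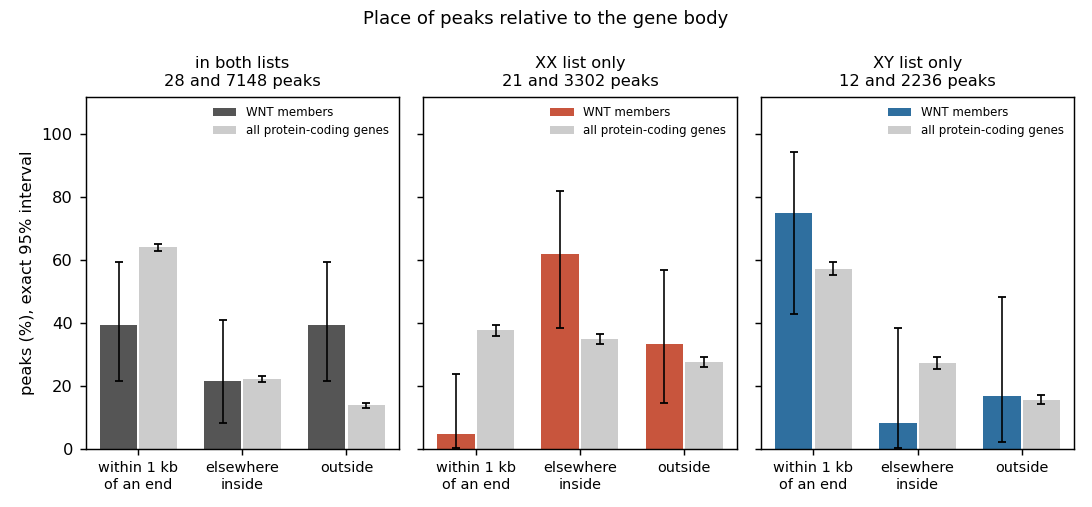
Share of peaks (vertical axis, percent, bars with exact 95% intervals) that lie within 1 kb of an end of their gene, elsewhere inside it or outside it, for peaks in both lists, in the XX list only and in the XY list only. Coloured bars are peaks at WNT genes and light grey bars are peaks at all protein-coding genes. Of the 28 shared peaks at WNT genes 39.3% lie outside the gene, against 13.8% for all genes, but with a limit of 10 kb in place of 100 kb the shares are 5.56% and 4.98%.

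The 27 WNT genes without a peak of their own had a median of 67 kb of genome nearest to them, and the 33 with a peak had 139 kb. The nearest peak, given to another gene, lay within 10 kb of the body for 3 of them, at 10 to 50 kb for 14, at 50 to 100 kb for 7 and over 100 kb away for 3. The closest were at Rnf43 (1.56 kb, a peak given to Supt4a), Sfrp4 (3.65 kb, given to Epdr1) and Wnt10b (7.93 kb, given to Arf3). Wnt1, beside Wnt10b, had the same Arf3 peak at 27.1 kb. The distance to the nearest peak was 29.5 kb at Wnt9b, a signal from the Wolffian duct, 58.1 kb at Wnt4, which the Müllerian duct needs to form, and 62.0 kb at Wnt7a, a ligand of Müllerian epithelium. Wnt5a, a mesenchymal ligand, Fzd10 and Rspo2 had no peak of either list within 100 kb. Their nearest peaks lay 182 kb, 194 kb and 306 kb away.

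A further 64 genes of the pathway were counted in the same way. An XX peak was found at 36 of them (56.3%), an XY peak at 31 (48.4%) and a shared peak at 20 (31.3%), against 36.9%, 35.0% and 28.2% of all protein-coding genes. Per megabase of nearest genome they had 7.36 XX, 6.19 XY and 3.68 shared peaks, against 5.47, 4.91 and 3.74 for all genes. Btrc, Prickle1, Vangl1, Csnk1d and Gsk3b had 2 shared peaks each. Gsk3b and Csnk1d, kinases of which the former phosphorylates β-catenin, had theirs close to an end of the gene: at 373 bp outside and 662 bp inside for Gsk3b, and at 177 bp and 1.01 kb inside for Csnk1d. Btrc, which encodes the ubiquitin ligase subunit that recognises phosphorylated β-catenin, had 1 shared peak 447 bp inside an end and 1 at 62.5 kb outside. Vangl1 and Prickle1, planar polarity genes like Vangl2, each had 1 shared peak within 1 kb of an end and 1 deeper inside the gene. Tnks2, a tankyrase that acts on Axin, had 4 XX and 2 XY peaks with 1 shared, and Csnk1g3 and Daam2 each had 1 XX and 2 XY peaks with 1 shared.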

How the data were processed

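Positions of COUP-TFII peaks were taken from 2 lists deposited by the authors, 1 per sex over its 2 replicates. The deposited values are the chromosome, start and end of each peak, all 300 bp wide, with no signal. Per the submitters' processing notes, the build is mm10 and the tools named include HOMER 4.10.3, Bowtie 1.2, bedtools 2.24.0, Picard and cutadapt. The sources used here do not state their roles, the peak threshold or how replicates were joined. The extraction text in the labels names another factor and tissue, and the titles, antibody and design text, which name COUP-TFII and mesonephroi, were followed.

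Gene bodies and promoter windows came from RefSeq (GRCm38.p6). Coordinates count from 1. Peaks were given to genes and compared in Python 3.11.15, with exact (Clopper-Pearson) 95% intervals from SciPy 1.17.1. Shared peaks were counted again with bedtools 2.31.1 (7483 both times), and the functions were tested on simulated data. The stretch nearest to a gene was measured at positions every 1000 bp. Strand was known only for genes with a matched window, and exons and introns were not used here.

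The genes and lists were chosen with earlier results of these data known, so no list was tested. All 60 genes are accounted for, with values for each that has a shared peak, several peaks or a peak in 1 list. From the second list the 8 with most shared peaks were named (ties by total peaks, then symbol). Motifs were planned for members beside all promoters, and the 2 sequence sets shown were chosen after the peaks were seen. Alternatives were other distance limits, nearest gene end, genes of all kinds, every peak within 100 kb, and other definitions of a shared peak and of a gene end.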

Additional observations from a re-analysis of the deposited data

How the results depend on the processing

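No paired analysis was possible because each sex has 1 peak list over both replicates, and for the same reason no replicate could be left out. A stricter peak threshold could not be tried on lists without scores. Counts of genes with a peak moved by at most 1.5 times under every alternative except 1. When every peak within 100 kb counted, also where another gene was nearer, there were 149 XX and 129 XY peaks, with 55 genes having an XX peak, 52 an XY peak and 3 none, and the peaks of neighbouring WNT genes were counted for each. Shared peaks numbered 18 with a limit of 10 kb and also 18 with genes of all kinds competing, in place of 28, while 16 and 15 genes kept a count above 0, in place of 20. Under these settings, respectively, 5.56% and 11.1% of shared peaks lay outside the gene in place of 39.3%, 61.1% in both lay at an end in place of 39.3%, and 0 and 1 genes had at least 3 shared peaks in place of 3, with 0 in both having at least 4 in place of 1. The distant peaks that gave the outside share are those these settings drop. XY-only peaks numbered 7 with peaks within 1 kb taken as shared, in place of 12. With gene ends reaching 500 bp instead of 1 kb, 17.9% of shared and 41.7% of XY-only peaks lay at an end, in place of 39.3% and 75.0%, and over all genes 53.2% and 44.6%. By the nearest gene end, Wnt5b lost its XX peaks and Fzd4 gained 2. Requiring 50% of each peak in common changed no gene's shared count, and centres within 100 bp changed it at 2 genes. Leaving out Wnt7b, and the places and counts of several shared peaks under the 10 kb limit and with genes of all kinds, were added after the data were seen. The shares of peaks within 1 kb of a start were not planned either, although distances to starts were.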
